A study of Mus musculus with 6 samples.

Results

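The genes examined here encode, in the nucleus, the mitochondrial respiratory chain and ATP synthase, in gastrocnemius muscle sequenced from 6 mouse libraries. Members were taken by name: protein-coding rows of the deposited table whose symbol starts with Nduf, Uqcr, Atp5 or Cox and a digit, together with Cyc1, Cycs, Sdha, Sdhb, Sdhc and Sdhd. This gave 105 of 54532 rows. Of these, 102 passed the filter on low counts and were tested among 14973 genes. The other 3, namely Cox7b2, Cox8c and a second Atp5o row (ENSMUSG00000116933), had 0 counts in every library, which allows up to 3 counts in each. By complex the 105 rows comprised 44 of complex I, 4 of complex II, 9 of complex III, 29 of complex IV, 18 of complex V and the carrier Cycs. Among the 102 tested, 83 encode subunits or cytochrome c and 19 were classed as assembly factors. Most of the latter are proteins that help build a complex without staying in it. Cox7a2l was counted in that class, although this definition may not hold for it.

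All mice were 3 months old, of strain C57BL/6J, carried Mck cre and drank 0.2% doxycycline supplied at 4 weeks of age. Mck is the promoter of muscle creatine kinase, active in differentiated striated muscle, so the Cre acts in muscle fibres. The control group (Ctrl) had Mck cre alone. The other group, named MP in the titles, also carried a transgene labelled Tg Glut1-Hk2-Pfkfb3. That label names a glucose carrier and a pair of enzymes that catalyse or regulate early steps of glycolysis. Each group had 3 libraries, with totals between 19546456 and 24665024 counts. Whether each library stands for its own animal is not in the labels, and p-values therefore measure only how these samples spread. The question put to the data was whether oxidative genes differed in muscle carrying a glycolytic transgene.

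The respiratory chain passes electrons from NADH through complex I, or from succinate through complex II, to complex III and by cytochrome c to complex IV, which reduces oxygen. Complexes I, III and IV pump protons, and complex V, the ATP synthase, uses the gradient to make ATP. Fast gastrocnemius fibres make much of their ATP by glycolysis, while oxidative fibres hold more mitochondria. Several complex IV subunits exist as a muscle isoform and a ubiquitous isoform encoded by different genes, among them Cox6a2 and Cox6a1, Cox7a1 and Cox7a2, and Cox8b and Cox8a.

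The promoters of 3 members are shown because results below turn on them: Ndufaf5, the member that passed the test, and Cox8b and Cox8a, a muscle and a ubiquitous isoform whose ratio did not overlap between the groups. Each sequence covers the 250 bases before the RefSeq transcription start, in the sense of the gene, on GRCm38.p6. Capitals mark a match to a motif that was searched on both strands. The positions are chr2:140170396-140170645 (plus strand) for Ndufaf5, chr7:140900447-140900696 (minus strand) for Cox8b and chr19:7217617-7217866 (minus strand) for Cox8a.
Ndufaf5: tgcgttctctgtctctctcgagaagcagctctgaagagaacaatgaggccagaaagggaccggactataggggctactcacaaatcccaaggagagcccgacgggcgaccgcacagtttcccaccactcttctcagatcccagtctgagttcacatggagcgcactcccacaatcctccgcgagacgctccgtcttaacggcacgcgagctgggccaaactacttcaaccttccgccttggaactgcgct
Cox8b: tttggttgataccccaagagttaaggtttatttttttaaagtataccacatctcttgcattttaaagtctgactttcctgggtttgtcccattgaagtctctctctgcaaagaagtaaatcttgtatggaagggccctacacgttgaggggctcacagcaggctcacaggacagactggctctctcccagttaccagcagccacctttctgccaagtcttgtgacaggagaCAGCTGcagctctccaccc
Cox8a: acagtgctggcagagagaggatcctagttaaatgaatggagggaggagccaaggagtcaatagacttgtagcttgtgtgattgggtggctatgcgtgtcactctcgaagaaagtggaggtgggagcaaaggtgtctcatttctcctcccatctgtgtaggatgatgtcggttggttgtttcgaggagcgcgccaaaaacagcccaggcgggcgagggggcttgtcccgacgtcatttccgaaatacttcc

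Matches that lie at or after the start are given as 30-base windows at chr2:140170652-140170681 (plus), chr7:140900417-140900446 (minus) and chr19:7217603-7217632 (minus). The capitals are the NRF1 palindrome in Ndufaf5, TATAAA and the E-box CAGCTG in Cox8b, and ACTTCCGG, the reverse complement of the ETS motif CCGGAAGT, in Cox8a. NRF1 and the ETS factor GABP are known activators of many respiratory genes, and an E-box is the kind of element bound by myogenic factors.
Ndufaf5 site: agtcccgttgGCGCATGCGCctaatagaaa
Cox8b site: cagcTATAAAaagcccCAGCTGgctaccta
Cox8a site: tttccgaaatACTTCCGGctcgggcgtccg

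The palindrome of Ndufaf5 spans bases 17 to 26 counted from the start. In Cox8b the E-box occurs at bases -19 to -14 and 17 to 22 and TATAAA at bases 5 to 10. Cox8a has the ETS match at bases -6 to 2 and again at 32 to 39. RefSeq windows from 250 bases before to 50 bases after the start were available for 83 of the 102 tested members and for 10249 of all genes tested. The full NRF1 palindrome was found in 7 of the 83 members (8.434%) and in 2.01% of all genes tested with a window, and GCATGCGC, a part of it, in 13 members (15.663%) against 5.24%. The ETS letters CCGGAAGT were found in 9 members (10.843%) against 8.069%, and the shorter CCGGAAG, which every CCGGAAGT contains, in 22 (26.506%) against 17.611%. AAGATGGC, the YY1 motif, was found in 12 (14.458%) against 4.576%. CAGCTG and TATAAA, which were chosen after these promoters had been read, were found in 6 (7.229%) and 7 members (8.434%), against 15.338% and 7.171%. The median log2 fold change was -0.13 in the 7 members with the NRF1 palindrome and -0.07 in the 76 without, but -0.07 with GCATGCGC and -0.09 without. It was -0.06 with CCGGAAGT and -0.10 without, and -0.14 with AAGATGGC and -0.07 without. These matches describe letters in a window and are not evidence of binding.

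Among the labels' own targets, none passed the test as higher in MP, which bears on how the group names are read. On the log2 scale Pfkfb3 differed by -1.52 ± 0.57 (SE, edgeR adjusted p = 0.196), Slc2a1 -0.63 ± 0.31 (0.290) and Hk2 0.44 ± 0.27 (0.381). Pfkfb3 was at 579, 1096 and 1585 CPM in the controls and at 120, 476 and 542 CPM in MP, without overlap. The groups overlapped for Slc2a1 and Hk2. Hk2 was at 156, 165 and 187 CPM against 341, 168 and 182 CPM, so only MP replicate 1 lay above the controls. Directions below are therefore drawn between libraries labelled MP and libraries labelled Ctrl. The tissue label was met by the fast myosin Myh4, at 29055 to 60249 CPM in each library. In 2 libraries other values stood apart. Control replicate 1 held 533 CPM over 9 B cell markers and 160 CPM over 10 T and NK cell markers, against at most 57.0 and 6.35 CPM elsewhere. MP replicate 1 had 9413 CPM of Myh1, the myosin of type IIx fibres, against 2811 to 4090 CPM elsewhere, and the lowest Myh4. It also had the highest sums of the 7 endothelial markers, 664 CPM against 256 to 361 CPM, and of the 6 smooth muscle and pericyte markers, 530 CPM against 269 to 405 CPM. No marker of these last 2 lists was at 0 in all libraries. In bulk tissue, fewer cells of a type and less RNA per cell cannot be told apart.

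Per transcript length, the members' levels set the subunits well apart from the assembly factors. The deposited FPKM values, which divide counts by gene length and library size, had medians over subunits of 98.0 in complex I, 153 in complex II, 179 in complex III, 189 in complex IV and 138 in complex V. The median over the 19 assembly factors was 8.34 FPKM, from 0.727 for Cox17, a copper chaperone, to 137 for Cox14. The highest mean levels were those of Cox6a2 (741 FPKM), Atp5b, the catalytic beta subunit of ATP synthase (727), Cox8b (685) and Atp5a1, its alpha subunit (574). The highest of the other complexes were Ndufb11 (278 FPKM), Sdha, the flavoprotein of succinate dehydrogenase (218), and Uqcr10 (348). Per length, the muscle isoforms exceeded their ubiquitous partners in every library. Cox6a2 was 88.5% to 94.98% of the sum of Cox6a2 and Cox6a1, Cox8b was 85.2% to 94.1% of its pair, and Cox7a1 was 77.3% to 79.8% of its pair. Cox4i2, Cox6b2 and Ndufa4l2 were at the other end, at no more than 0.931%, 0.473% and 4.02% of their pairs. Ndufb2 had only 2.27 FPKM, but its annotated exons span 5628 bases and share 7.94% of them with other genes, so that value may not compare with those of short subunits.

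**Figure D1:**
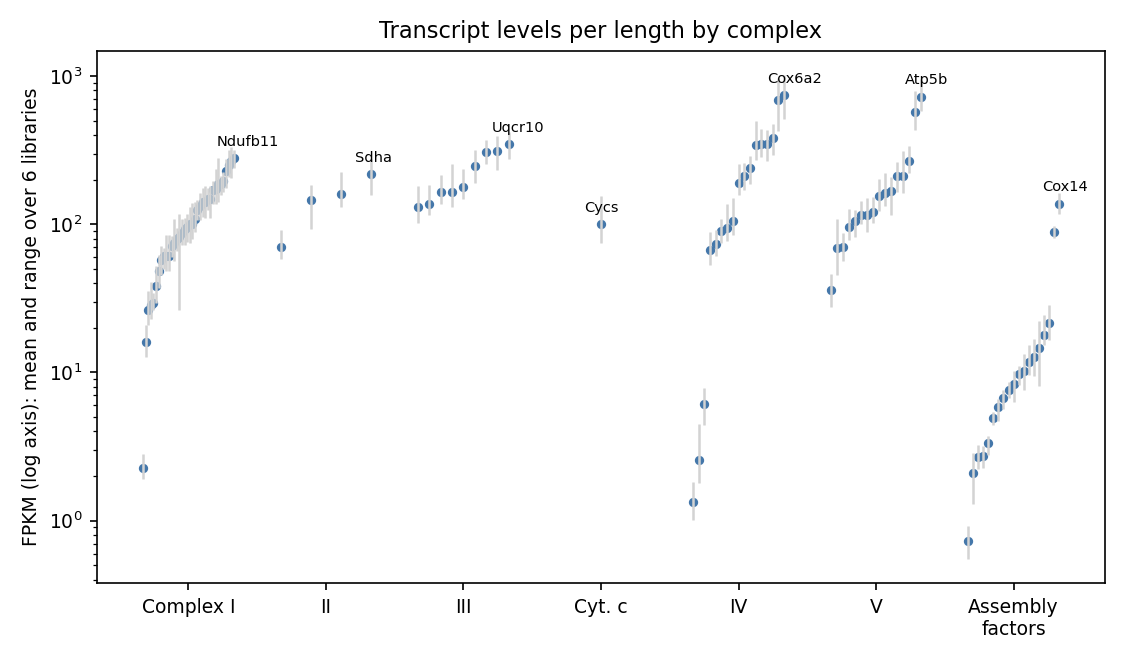
Mean FPKM of each tested member (points) with the range over the 6 libraries (grey lines), on a log axis, for the subunits of complexes I to V, cytochrome c and the assembly factors. Most subunits lie near the medians of 98.0 to 189 FPKM, while the assembly factors, with a median of 8.34 FPKM, lie lower, and the highest gene of each class is named.

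Between the groups, 1 of the 102 members passed an adjusted p of 0.05, the complex I assembly factor Ndufaf5, which was lower in MP, and 0 were higher. In edgeR's quasi-likelihood test over all genes, 194 of 14973 passed (1.3%), 118 higher (0.788%) and 76 lower (0.508%), so the members' count is near that background. Without control replicate 1 the test called 4 members, with Cox6a2, Cox8b and Ndufaf5 lower and Ndufa4l2 higher, when 13.1% of all genes passed (6.08% higher, 6.99% lower). In the fits without each of the other 5 libraries it called 0 members, and few genes passed at all. All genes called numbered 3 and 0 without control replicates 2 and 3, and 54, 1 and 1 without MP replicates 1, 2 and 3. An unadjusted p under 0.05 was reached by 8 members, against 20.8% of all genes. The log2 fold change (MP over Ctrl) was negative in 71 members and positive in 31, with a median of -0.09 and a range from -1.08 to 0.71. Over all genes tested, 7996 of 14973 log2 fold changes were negative and the median was -0.03. Medians over subunits were -0.12 in complex I, -0.09 in complex II, -0.04 in complex III, 0.02 in complex IV and -0.05 in complex V. The median of the members was 0.07 under scaling by library totals alone, with 33 members negative, but that scaling also put the median of all genes at 0.12.

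**Figure D2:**
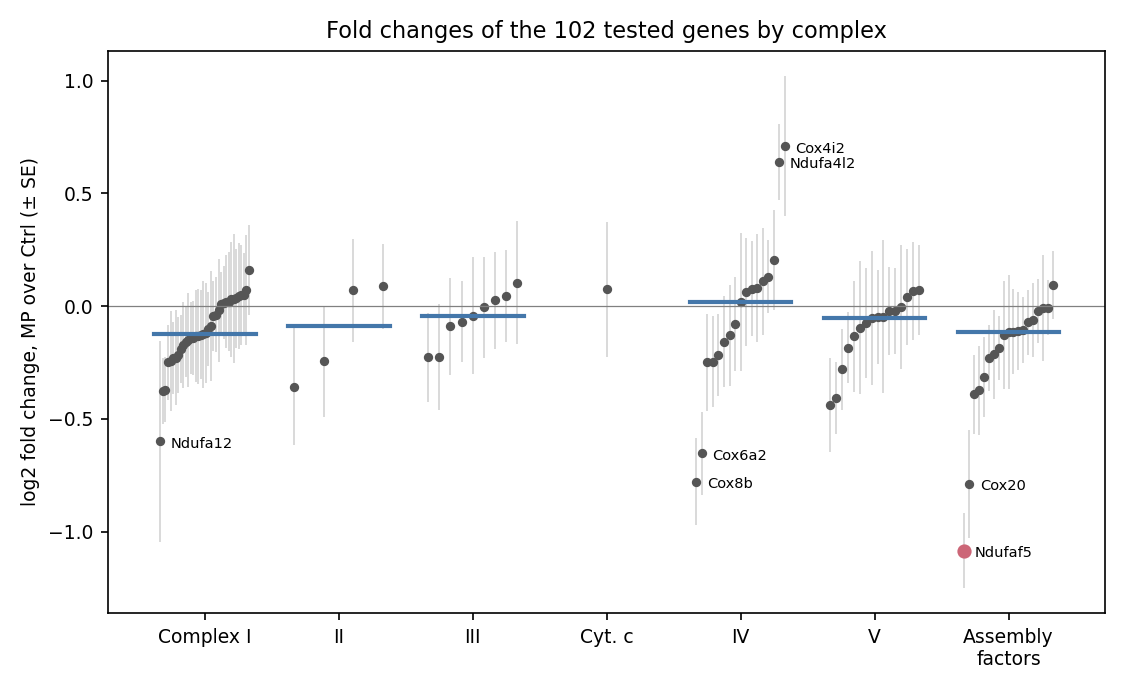
Log2 fold change of MP over Ctrl with its SE for each of the 102 tested members, arranged by complex, with blue bars at the median of each class. Ndufaf5, at -1.08, is the member past the threshold (red), and Cox8b, Cox6a2 and Cox20 lie below most others while Cox4i2 and Ndufa4l2 lie above.

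The small median covers libraries that lay on opposite sides of the controls. As each member's deviation from its own mean log2 CPM over the 6 libraries, the median over members was -0.15, 0.19 and 0.14 in control replicates 1, 2 and 3. In MP replicates 1, 2 and 3 it was 0.34, -0.25 and -0.25. The same medians over all genes tested lay between -0.01 and 0.01. Thus MP replicate 1 was above the control libraries in these genes, and MP replicates 2 and 3 were below them. MP replicate 1 lay above all 3 control libraries in 67 of 102 members (30.5% of all genes), whereas MP replicates 2 and 3 lay below all 3 in 66 and 74 members (27.3% and 27% of all genes). MP replicate 1 was the highest of the 6 libraries in 67 members (21.1% of all genes). The lowest was MP replicate 3 in 41 members (11.2% of all genes), MP replicate 2 in 36 (12.9%) and control replicate 1 in 18 (19%). Summed over members, expression was 21648, 27119 and 26641 CPM in the controls and 31053, 19417 and 19267 CPM in MP. As a percentage of each library's total counts, without the scaling used for CPM, members held 2.38, 2.38 and 2.34 in the controls. In MP replicates 1, 2 and 3 they held 3.21, 2.05 and 2.06. By that measure control replicate 1 was not below the other controls.

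The spread within MP was accordingly wide for these genes. The median SD of log2 CPM over the 3 libraries was 0.34 in MP and 0.20 in Ctrl for members, against 0.19 and 0.25 for all genes tested. The median log2 fold change of the members moved with single libraries. It was -0.29 without MP replicate 1, -0.19 without control replicate 1, and 0.0021 and 0.0013 without MP replicates 2 and 3. It was -0.04 and -0.05 without control replicates 2 and 3. The fibre and vessel markers given above also stood apart in MP replicate 1, and the lymphocyte markers in control replicate 1. Their part in the members' levels was not tested. The 13 mitochondrially encoded mRNAs summed to 80787, 111606 and 100731 CPM in the controls and to 94088, 56403 and 63192 CPM in MP. In this sum too MP replicates 2 and 3 were the lowest, while MP replicate 1 lay within the control range. The sum does not describe each of the 13. The 1 that passed, mt-Nd3, had 39.9, 52.4 and 49.4 CPM in the controls and 12.4, 5.67 and 7.45 CPM in MP (-2.47 ± 0.28, edgeR adjusted p = 0.0188).

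**Figure D3:**
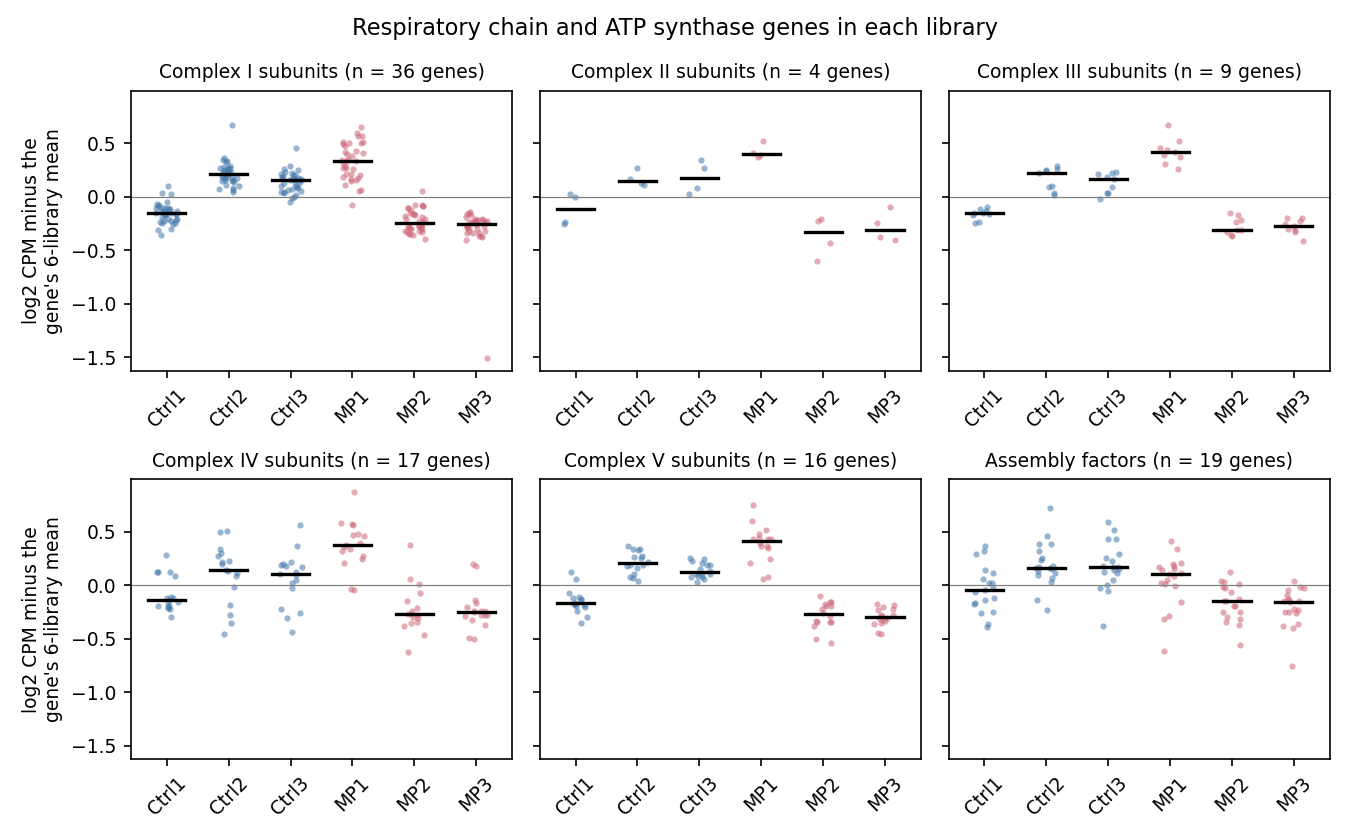
Each point is the log2 CPM of a tested member in a library minus that member's mean over the 6 libraries, for the subunits of each complex and for the assembly factors (Ctrl blue, MP red), and black bars are medians. In each of the 5 complexes MP1 has the highest median and MP2 and MP3 the lowest, while for assembly factors the MP1 median, 0.11, lies within the control range.

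Complex I, which takes electrons from NADH, is the largest of the complexes, and 36 of its subunits and 8 of its assembly factors were tested. All 7 core subunits, which carry the redox centres, had negative log2 fold changes, with a median of -0.13, and none passed the test. In each of the 7, MP replicates 2 and 3 were below every control library, and MP replicate 1 was above every control library in 6. Over all 102 members these counts were 62 and 67, and over the 14973 genes tested 2891 and 4570. Of the 29 accessory subunits 17 were negative and 12 positive. Ndufb7 had the highest log2 fold change of complex I, 0.16 ± 0.20 (SE, adjusted p = 0.675). Ndufb11, the complex I gene of highest level per length, had -0.10 ± 0.16. Ndufa1, an X-linked membrane subunit, had 97.0, 114 and 116 CPM in the controls and 98.6, 79.9 and 73.4 CPM in MP (-0.38 ± 0.15, adjusted p = 0.202). Ndufb2 had 13.0, 15.8 and 14.6 CPM against 12.02, 10.8 and 10.7 CPM (-0.37 ± 0.14, adjusted p = 0.207). The groups overlapped for Ndufa1 and did not for Ndufb2.

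Ndufa12, an accessory subunit, had the lowest log2 fold change among the subunits of complex I, with MP libraries that lay far apart. Its levels were 125, 185 and 160 CPM in the controls and 173, 96.3 and 41.1 CPM in MP (-0.60 ± 0.45, adjusted p = 0.473). Without MP replicate 3 the log2 fold change was -0.22, and without MP replicate 1 it was -1.18. A near-identical pseudogene, Gm15920, took a further 48.2, 58.9 and 71.6 CPM in the controls and 70.9, 61.6 and 86.1 CPM in MP. MP replicate 3 was thus the lowest for the gene and the highest for its copy. Summed over gene and copy, the mean of log2 CPM, taken without a prior count, differed by -0.33 (MP minus Ctrl). That measure is not the fitted log2 fold change, so the values given for the gene alone do not compare directly with it. The Ndufa12 value is uncertain, because the sources used here do not say how reads matching both were assigned.

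Ndufaf5 was the member past the threshold. It encodes a mitochondrial enzyme that hydroxylates an arginine of the core subunit Ndufs7 during assembly of complex I. The gene (ENSMUSG00000027384) lies at chr2:140170649-140203689 on GRCm38, plus strand, shares no annotated exon base with another gene, and had no near-identical copy by the search used. Its levels were 30.3, 40.0 and 36.6 CPM in control replicates 1, 2 and 3 and 19.5, 16.5 and 14.4 CPM in MP replicates 1, 2 and 3. Every MP library lay below every control library, MP replicate 1 included. Means were 35.6 ± 4.92 and 16.8 ± 2.56 CPM (SD, n = 3 each), a ratio of 0.472. The log2 fold change was -1.08 ± 0.16 (SE, 95% interval -1.47 to -0.70, edgeR adjusted p = 0.0362). The direction held without each library in turn, from -1.19 to -0.98, but the call held only without control replicate 1 (adjusted p = 0.00917). Without control replicates 2 and 3 the adjusted p was 0.0995 and 0.159, and without MP replicates 1, 2 and 3 it was 0.0576, 0.150 and 0.172. Those fits called only between 0 and 54 of all genes, so the lost call is not particular to Ndufaf5. With the members' own median as the scale the log2 fold change was -0.97 (adjusted p = 0.143).

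The other 7 complex I assembly factors also had negative log2 fold changes, and none passed the test. For the 8 together the median was -0.27. Ndufaf1, a chaperone of the membrane arm, had 32.95, 34.2 and 42.5 CPM in the controls and 34.1, 24.9 and 24.6 CPM in MP (-0.39 ± 0.17, adjusted p = 0.251). Ndufaf6 followed at -0.37 ± 0.20, and Ndufaf7, a methyltransferase that acts during assembly, was the nearest to no difference at -0.02 ± 0.14. Over the 19 assembly factors of all complexes, 18 were negative with a median of -0.11, and MP replicate 1 was the highest library in 5, against 62 of the 83 subunits and cytochrome c. Their per-library medians were -0.05, 0.16 and 0.17 in the controls and 0.11, -0.15 and -0.16 in MP. The difference between the assembly factors and the subunits was not tested.

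Assembly factors whose names fall outside the rule were read from a separate list. Of 38 listed, 35 were tested. Of these, 0 passed as higher and 1 as lower (0.788% and 0.508% of all genes). Log2 fold changes were negative in 27 (7996 of the 14973 genes tested), and the median was -0.15. All MP libraries lay below all controls in 5 of the 35 (13.6% of all genes) and above them in 0 (13.8%). The gene that passed was Tmem186, a factor of complex I membrane arm assembly. Tmem186 had 30.2, 34.3 and 38.3 CPM in the controls and 19.6, 20.02 and 21.4 CPM in MP, without overlap (-0.75 ± 0.13 SE, edgeR adjusted p = 0.0463). Of the fits without a library, the call held only without control replicate 1 (adjusted p = 0.0116). The adjusted p was 0.121 and 0.191 without control replicates 2 and 3, and 0.126, 0.184 and 0.190 without MP replicates 1, 2 and 3. Those fits called only between 0 and 54 of all genes. The call was also lost in voom (0.0513), with library totals (0.0574) and with a filter of at least 1 count (0.0867). With FPKM (0.145 and 0.109), the replicate block (0.0900) and the members' median as the scale (0.436) it was lost too. The next by p, Tmem126b, also a complex I factor, differed by -0.33 ± 0.11 on the log2 scale (adjusted p = 0.173). Its groups did not overlap either, at 22.3 to 24.3 CPM in the controls and 17.7 to 19.2 CPM in MP. Acad9 and Ecsit, which act in the same assembly intermediate as both, were at -0.15 ± 0.14 and -0.05 ± 0.14, with overlapping groups.

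Complex II, succinate dehydrogenase, links the citric acid cycle to the chain. Of its 4 genes 2 had negative and 2 positive log2 fold changes, and none passed the test. Sdhb, the iron-sulfur subunit, had 324, 381 and 401 CPM in the controls and 415, 209 and 239 CPM in MP (-0.36 ± 0.26, adjusted p = 0.462). Sdha had 877, 988 and 1063 CPM against 1139, 654 and 679 CPM (-0.24 ± 0.25, adjusted p = 0.604). In both, MP replicate 1 was above and MP replicates 2 and 3 were below every control library. Sdhc, a membrane anchor, was at 0.09 ± 0.19 (adjusted p = 0.823).

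Complex III passes electrons to cytochrome c, and 0 of its 9 genes passed the test, with 6 negative and 3 positive. Uqcr10, a small subunit, had the lowest log2 fold change (-0.23 ± 0.20, adjusted p = 0.539), and Cyc1, the cytochrome c1 subunit, the highest (0.10 ± 0.27, adjusted p = 0.857). Cyc1 was at 322, 358 and 358 CPM in the controls and at 554, 281 and 281 CPM in MP. Its soluble partner Cycs, cytochrome c itself, showed the same layout, at 279, 367 and 348 CPM against 534, 253 and 259 CPM (0.07 ± 0.30, adjusted p = 0.915). The means of these genes hardly differed, while their MP libraries lay on both sides of all controls.

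Complex IV, cytochrome c oxidase, held the subunits with the lowest and the highest log2 fold changes, all of them isoforms. Cox8b, the muscle and brown fat isoform of subunit VIII (chr7:140898945-140900446), had 256, 332 and 348 CPM in the controls and 228, 152 and 166 CPM in MP. Cox6a2, the heart and skeletal muscle isoform of subunit VIa (chr7:128205435-128206387), had 530, 692 and 630 CPM in the controls and 476, 355 and 347 CPM in MP. In both genes all 3 MP libraries, MP replicate 1 included, lay below all 3 controls, as in 13.6% of all genes and 6 of the 102 members. The log2 fold changes were -0.78 ± 0.19 for Cox8b (95% interval -1.23 to -0.32, edgeR adjusted p = 0.0963) and -0.65 ± 0.18 for Cox6a2 (-1.08 to -0.23, adjusted p = 0.119), and neither passed the threshold. Both passed without control replicate 1 (adjusted p = 0.0246 and 0.0328) and both passed in DESeq2 (0.00666 and 0.0128). In DESeq2 983 of 27897 genes passed (3.52%). That set was not filtered on low counts as the 14973 genes were, so its share does not compare with the others given here. Of the exon bases of Cox6a2, 10.29% are shared with Itgad on the opposite strand, and the strand setting of the counting is not given in the sources used here.

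The ubiquitous partners did not have lower means in MP. Cox8a had 42.0, 39.2 and 33.2 CPM in the controls and 50.1, 40.0 and 35.3 CPM in MP (0.13 ± 0.16, adjusted p = 0.676). Cox6a1 had 55.9, 37.8 and 37.1 CPM against 63.1, 47.8 and 39.8 CPM (0.20 ± 0.22, adjusted p = 0.630). The groups overlapped in both. Control replicate 1, the library with lymphocyte markers, had the highest control value of each.

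The ratio of the isoforms was compared within each library for 6 pairs, of which 3 set a muscle isoform against a ubiquitous one. The log2 ratio of Cox8b to Cox8a was 2.61, 3.08 and 3.39 in the controls and 2.18, 1.93 and 2.24 in MP, and that of Cox6a2 to Cox6a1 was 3.25, 4.20 and 4.09 against 2.92, 2.89 and 3.12. Neither ratio overlapped between the groups. Means were 3.03 ± 0.39 and 2.12 ± 0.16 for Cox8 (SD, n = 3 each), a difference of -0.91, and 3.84 ± 0.52 and 2.98 ± 0.13 for Cox6a, a difference of -0.86. The two-sided exact permutation p was 0.1 for each, the smallest that 3 against 3 allows, and 0.15 after Benjamini-Hochberg adjustment over the 6 pairs, so the design could not pass 0.05. Control replicate 1 was nearest to MP in both, and without it the differences were -1.12 and -1.16. The third muscle isoform did not follow. Cox7a1 had 158, 191 and 192 CPM in the controls and 267, 146 and 153 CPM in MP. The log2 ratio of Cox7a1 to Cox7a2 was 1.07 ± 0.09 in the controls and 1.02 ± 0.07 in MP, a difference of -0.05 (exact permutation p = 0.5, adjusted 0.6). Differences between the pairs were not tested. Because other cell types express the ubiquitous isoforms, their markers are given with these ratios: in control replicates 1 to 3 and MP replicates 1 to 3, the 7 endothelial markers summed to 352, 256, 305, 664, 332 and 361 CPM, and the 6 fibro-adipogenic progenitor markers to 1013, 676, 999, 1341, 1066 and 1202 CPM. Their part in the ratios was not tested. The 3 brown adipocyte markers, of a tissue where Cox8b is also abundant, summed to 2.002 to 3.26 CPM in the controls and 5.01 to 6.35 CPM in MP. Nearly all of this was Cidea, at 2.002 to 3.12 and 4.81 to 6.20 CPM. Ucp1, the defining gene of those cells, was at 0 in 5 libraries and 0.0401 CPM in MP replicate 3, and Elovl3 did not exceed 0.496 CPM.

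**Figure D4:**
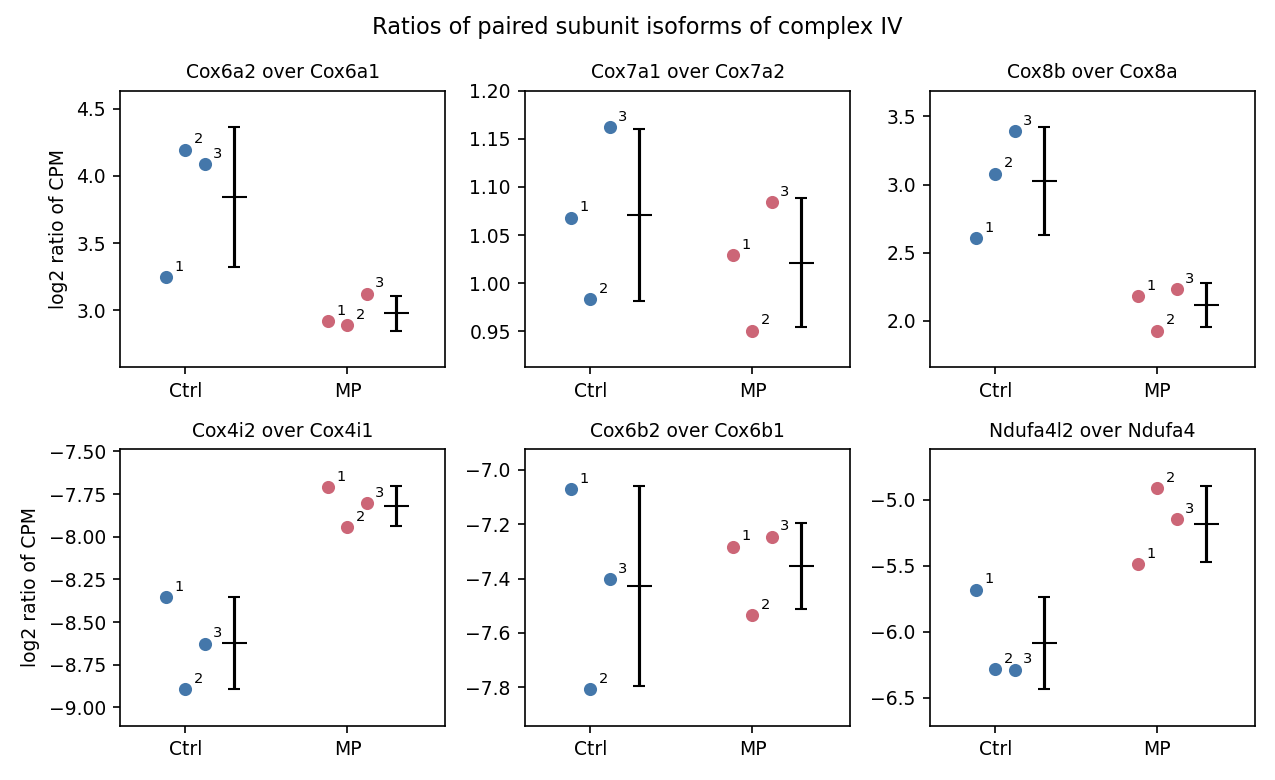
Log2 ratio of CPM for 6 isoform pairs of complex IV in each library (numbered points, Ctrl blue, MP red), with mean and SD at the right of each group, where each panel has its own scale. The Cox6a2 and Cox8b ratios are lower in every MP library than in every control, the Cox4i2 and Ndufa4l2 ratios are higher, and the Cox7a1 and Cox6b2 ratios overlap.

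A further pair of isoforms stood at the upper end. Ndufa4l2, a paralogue of the complex IV subunit Ndufa4 known to be induced by hypoxia, had 5.84, 5.15 and 4.84 CPM in the controls and 8.64, 8.53 and 7.53 CPM in MP (0.64 ± 0.17, 95% interval 0.24 to 1.03, adjusted p = 0.107). Cox4i2, the isoform of subunit IV known from lung and oxygen-sensing cells, had 1.58, 1.42 and 1.66 CPM against 3.55, 1.84 and 2.20 CPM (0.71 ± 0.31, adjusted p = 0.246). For both, every MP library was above every control, as in 13.8% of all genes, and these were the only such members. Without control replicate 1 Ndufa4l2 passed the test (adjusted p = 0.0359). Without MP replicate 1, the library highest in Cox4i2, the log2 fold change of Cox4i2 was 0.40 in place of 0.71. Their partners had log2 fold changes of -0.25 ± 0.20 (Ndufa4) and -0.13 ± 0.22 (Cox4i1). The log2 ratio of Ndufa4l2 to Ndufa4 differed by 0.90 and that of Cox4i2 to Cox4i1 by 0.81, without overlap (exact permutation p = 0.1 and adjusted 0.15 for each). Both genes are known in pericytes and vascular smooth muscle. The 6 markers of those cells summed to 310, 269 and 323 CPM in the controls and 530, 338 and 405 CPM in MP, also without overlap. Of the 6 markers 3 were above all controls in every MP library. The others overlapped between the groups, with log2 fold changes of -0.19 (Acta2), 0.33 (Cnn1) and 0.47 (Rgs5, the largest part of the sum). The part of those cells in the Ndufa4l2 and Cox4i2 values was not tested. Cox6b2, a testis isoform, was low, at 1.11 to 2.02 CPM, and its log2 ratio to Cox6b1 overlapped between the groups (difference 0.07, exact permutation p = 0.8). The log2 fold changes were 0.02 for Cox6b2 and -0.08 for Cox6b1.

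The remaining complex IV genes showed no call. Over its 11 ubiquitous subunits 6 log2 fold changes were negative and 5 positive, within -0.25 to 0.20. Of its 10 assembly factors 9 were negative, from -0.79 for Cox20 to 0.09 for Cox11, a copper-transfer protein. Cox20, a chaperone of the Cox2 subunit, had 2.17, 2.32 and 2.54 CPM in the controls and 1.16, 1.55 and 1.36 CPM in MP (-0.79 ± 0.24, adjusted p = 0.138). Its groups did not overlap, but 91.05% of its exon bases are shared with Hnrnpu on the opposite strand, so reads of Hnrnpu and of Cox20 cannot be told apart without a strand setting.

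**Figure D5:**
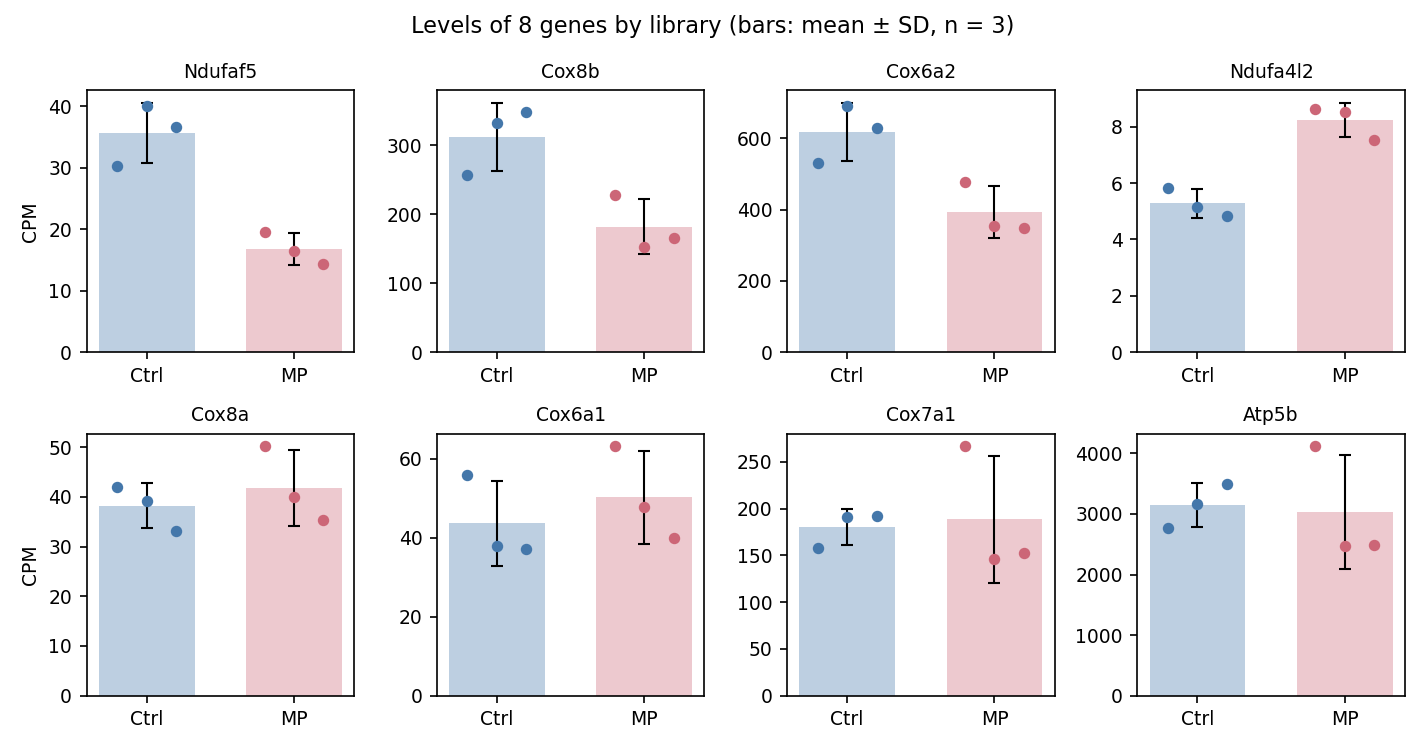
CPM of 8 members in each library (points), with group mean and SD (bars, n = 3 each). For Ndufaf5, Cox8b and Cox6a2 the 3 MP points lie below the 3 Ctrl points and for Ndufa4l2 above, while for Cox8a, Cox6a1, Cox7a1 and Atp5b the groups overlap.

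Complex V, the ATP synthase, had 0 of 17 tested genes past the threshold, with 14 negative log2 fold changes and 3 positive. Atp5b had 2773, 3168 and 3491 CPM in the controls and 4114, 2479 and 2495 CPM in MP (-0.05 ± 0.30, adjusted p = 0.940). The group means, 3144 ± 360 and 3029 ± 939 CPM (SD, n = 3 each), thus differed by far less than the MP libraries did among themselves. Atp5e, the epsilon subunit of the central stalk, had 381, 463 and 429 CPM against 380, 288 and 292 CPM (-0.41 ± 0.16, adjusted p = 0.211), and Atp5k, the membrane subunit e, 110.5, 128 and 121 CPM against 119.7, 71.3 and 74.1 CPM (-0.44 ± 0.21, adjusted p = 0.277). Atp5o, the stalk subunit OSCP, had the highest log2 fold change of the complex, 0.07 ± 0.20 (adjusted p = 0.864). Pseudogene copies took over 5% of the counts of Atp5l, Atp5g1 and Atp5h, as well as of Ndufa12, Ndufab1, Uqcrb, Uqcr11 and Cox7c. Summed with their copies, these 8 genes had differences in mean log2 CPM (MP minus Ctrl, without a prior count) from -0.33 to -0.01.

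Levels relative to the other members remove what the members of a library share. After subtracting each library's median over the members, 22 members lay below all controls in the 3 MP libraries and 13 above. Over all genes the same subtraction gave 4.88% below and 9.78% above, where the shares without it were 13.6% and 13.8%. The subtracted median is that of the members, so it puts their pattern, reversed, into other genes. The shares after subtraction are therefore no background for the counts of 22 and 13, and no excess is read from them. Those lower included, beside Ndufaf5, Cox8b, Cox6a2 and Cox20, the complex V genes Atp5k, Atp5e and Atp5mpl. On this scale Ndufaf5 was at 0.47, 0.53 and 0.44 in the controls and -0.66, -0.31 and -0.50 in MP, and Cox8b at 0.27, 0.31 and 0.42 against -0.39, -0.38 and -0.25. Those higher included Ndufa4l2, Cox4i2, Ndufb7 and Sdhc. Sdhc was at -0.08, -0.08 and -0.12 in the controls and 0.06, 0.04 and 0.16 in MP. These are differences between members within a library and carry no test.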

How the data were processed

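RNA of gastrocnemius was sequenced in 6 libraries, grouped by title into Ctrl and MP (3 each), from Trizol RNA and NEBNext Ultra libraries per the labels' protocols. The authors deposited whole-number counts per gene. They also deposited FPKM values, scaled by gene length and library size and used here for levels and in 2 alternative tests. The submitters' processing notes list HISAT2 2.0.5, featureCounts 1.5.0-p3 and the build GRCm38, without roles. The strand setting is not given in the sources used here. The members and gene lists were chosen with earlier results of these data known.

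Counts were tested with edgeR 4.0.16 (R 4.3.3; TMM scaling, filterByExpr, quasi-likelihood test, two-sided, Benjamini-Hochberg over 14973 genes, threshold 0.05). CPM values use TMM library sizes, and log2 CPM has a prior count of 2. Log2 fold changes are given ± SE, and other errors are SDs. Floors of 3 counts cover counting error only. Isoform ratios were compared with exact permutation tests. Alternatives were DESeq2 1.42.0, limma 3.58.1 (voom, and log2(FPKM + 1) and log2(FPKM + 0.1)), other scalings and filters, fits without each library over the same genes, and a replicate block.

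Named genes were those past the threshold, both members of each isoform pair, per complex the highest FPKM and the highest and lowest log2 fold change, the 8 smallest p, Cycs, and the assembly factors at either extreme. Ndufa12, Ndufaf1, Ndufaf6, Ndufaf7, Cox14, Cox17, Atp5a1, Atp5mpl and the genes with copies were named after their values were seen. Of the pathway lists, the 2 genes of smallest p were named, and Nrf1, Gabpa, Yy1, Ppargc1b, Acad9 and Ecsit after their values were seen. Copies were found with BLAST 2.17.0 (at least 95% identity over 150 bases). Tested members sharing exon bases with another gene numbered 39. The fitting steps were tested on simulated counts. Values of 1 member are not reported here.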

Additional observations from a re-analysis of the deposited data

How the results depend on the processing

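Scaling to the members' median was chosen after seeing the data. In place of 194 genes and 1 member, DESeq2 called 983 genes and 3 members, a filter of at least 1 count 124 genes, limma on log2(FPKM + 1) 0 genes and 0 members (3303 genes had an unadjusted p under 0.05), limma on log2(FPKM + 0.1) 16 and 0, and scaling to the members' median 18 and 0. Leaving out each library gave 0 to 1956 genes and 0 to 4 members. The fewest genes were called without control replicate 3, where 2116 genes had an unadjusted p under 0.05, and the most without control replicate 1. Without control replicate 1 and MP replicate 1 together, 3269 genes and 67 members passed, 66 of them lower, with a member median of -0.39. MP replicate 1 was known to stand apart in these genes, and control replicate 1 on the CPM scale only. That fit of 2 against 2 is therefore not independent support. The replicate block called 5 genes and 0 members. Same-numbered libraries had correlations of -0.02, -0.17 and 0.16 in their deviations from group means, so the numbers were not taken to pair them. Scaling by library totals gave 205 genes higher and 54 lower (79.2% higher, against 60.8%).

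None of the members whose sign turned was called with all 6 libraries. Leaving out each library, log2 fold changes ran from -0.25 to 0.22 (Cox7a1), -0.20 to 0.26 (Cox7a2), -0.0042 to 0.24 (Cox8a), -0.37 to 0.0045 (Cox4i1), -0.26 to 0.18 (Cox6b2), -0.31 to 0.036 (Cox6b1), -0.048 to 0.28 (Ndufb7), -0.11 to 0.21 (Sdhc), -0.29 to 0.27 (Cyc1), -0.32 to 0.072 (Atp5b), -0.15 to 0.18 (Atp5o) and -0.35 to 0.26 (Cycs), and the Cox6b2 to Cox6b1 ratio from -0.12 to 0.25. Without control replicate 1 and MP replicate 1 together they were -0.34 (Cox7a1), -0.29 (Cox7a2), -0.20 (Cox6b2), -0.16 (Ndufb7), -0.20 (Sdhc), -0.33 (Cyc1), -0.25 (Atp5o) and -0.46 (Cycs). With library totals they were 0.030 (Cox4i1), 0.079 (Cox6b1), 0.056 (Ndufb11) and 0.10 (Atp5b), and with the members' median 0.012 (Cox6b1), 0.0084 (Ndufb11) and 0.023 (Atp5b). Cox6b2 was -0.021 in voom, -0.0067 and -0.023 with FPKM (pseudocounts 1 and 0.1) and -0.0070 with the replicate block, and Cycs -0.014, -0.0052, -0.0059 and -0.015 in the same order. The cause of these changes was not tested.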

Other observations

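Factors that act on the promoters of respiratory genes were read from a list of 11, all of them tested. In edgeR's test 0 passed in either direction, against 1.3% of all genes, and 3 had an unadjusted p under 0.05, against 20.8% of all genes. All MP libraries lay above all controls in 2 of the 11 (13.8% of all genes) and below them in 2 (13.6%). The coactivator Ppargc1a (PGC-1α), known as a driver of mitochondrial gene expression in muscle, had 16.1, 15.5 and 25.4 CPM in control replicates 1, 2 and 3 and 86.5, 34.7 and 35.2 CPM in MP replicates 1, 2 and 3. All MP libraries were above all controls, with MP replicate 1 far above the others (log2 fold change 1.46 ± 0.39, adjusted p = 0.109). The library with the highest Ppargc1a was thus also the library with the highest sum over the members, 31053 CPM, while MP replicates 2 and 3, with 19417 and 19267 CPM, had more Ppargc1a than the controls and a lower sum. The related coactivator Pprc1 was lower in every MP library, at 34.2, 37.9 and 37.2 CPM in the controls and 18.7, 22.9 and 25.0 CPM in MP (-0.71 ± 0.14, adjusted p = 0.0603). The third relative, Ppargc1b, had 5.67, 2.65 and 2.86 CPM in the controls and 6.12, 6.35 and 8.05 CPM in MP, all MP libraries being above all controls (0.87 ± 0.32, adjusted p = 0.185). Of the DNA-binding factors whose motifs were searched, Nrf1 differed on the log2 scale by 0.08 ± 0.15 (adjusted p = 0.786) and Gabpa by 0.08 ± 0.14 (adjusted p = 0.768). Yy1 had 78.7, 84.7 and 79.4 CPM in the controls and 71.0, 70.6 and 75.3 CPM in MP, without overlap (-0.16 ± 0.10, adjusted p = 0.387).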
